A study of Mus musculus with 48 samples.

Results

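Gm10720, Gm10800 and Gm10801 are predicted mouse genes that lie within copies of a satellite repeat, and the loci over them were 3 of the 4 with the highest read counts in a methylated-DNA capture experiment on mouse amygdala. The loci were taken by position on the GRCm38 assembly, as every row of the count table that started below position 3200000 on chromosome 9 or overlapped chr2:98655000-98680000. Of 187695 loci in the table, 14 met this rule, 12 on chromosome 9 and 2 on chromosome 2. The windows had been chosen for their extreme counts in these same libraries, so the levels below are a description and were not tested. The name satellite-like held for 3 of the 14 loci, one over each of the named genes. The other 11, all on chromosome 9, had mean counts of 233 or less, are called ordinary here and are given separately.

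The amygdala was taken from male C57BL/6 mice (backcrossed on C57BL/6N) at 4 months of age, 8 per group in 6 groups, and each gave 1 library of genomic DNA, 48 in all. The mice were Tph2+/+ (wildtype), Tph2+/- or Tph2-/- for Tph2. This gene encodes the enzyme of the rate-limiting step of serotonin synthesis in the brain. The knockout was constitutive, so that it was not limited to a cell type or an age. Between postnatal days 2 and 15 the MS (maternal separation) pups spent 3 h of each day away from the dam, and the control (C) pups did not. All were offspring of Tph2+/- parents, so every dam carried the mutant allele and littermates may share a group, and all had passed through behavioural tests. The DNA came from blended tissue of both hemispheres, and capture of DNA holds no cell-type marker with which to check the tissue. The assay pulled down methylated fragments by means of a methyl-CpG-binding domain (MBD) before sequencing, so a count rises with the methylation of a locus, with its number of CpG sites and with the number of copies of its sequence, and these cannot be told apart here. The MS and C libraries filled separate runs of sample numbers (S1 to S17 and S42 to S48 for C, S18 to S26 and S27 to S41 for MS), so that MS and run cannot be told apart either.

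The major satellite of the mouse is a short AT-rich unit repeated head to tail over long stretches next to the centromeres, where it is packed as constitutive heterochromatin and its CpG sites are heavily methylated. A genome assembly holds few of these copies, because identical repeats cannot be put in order. Reads from the many copies in the animal can therefore align to the few copies in the reference, and a read cannot be assigned to the copy it came from. Predicted genes of this kind are gene models made by software, and no role is given here for Gm10720, Gm10800 or Gm10801.

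The locus over Gm10720, at chr9:2999846-3038818, was 38973 bp wide and held 780 CpG sites. It also covered 9 more predicted genes of the satellite-like gene list (Gm26870, Gm10722, Gm11168, Gm10721, Gm10719, Gm10718, Gm10717, Gm17535 and Gm10715) as well as Mir101c, so its count belongs to none of them alone. When the locus was laid over itself at a range of shifts, the best match came at 234 bases, where 70.9% of bases were equal against a median of 31.3% over all shifts tried. The other 2 named loci did not show this period as clearly. At the Gm10800 locus the best match was 38.1% at 485 bases, with 38.04% at 234 bases and a median of 26.9%, and at the Gm10801 locus it was 33.1% at 120 bases. To mark the repeat elsewhere, each 16-base word that occurred at least 5 times in this locus was called a satellite word, which gave 1346 words. Such words covered 96.9% of the Gm10720 locus by construction.

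The other named genes lay side by side on chromosome 2, in loci 11 bases apart. The locus over Gm10801, at chr2:98661728-98665716, was 3989 bp wide with 52 CpG sites, and satellite words covered 17.4% of it. The locus over Gm10800, at chr2:98665728-98667843, was 2116 bp wide with 33 CpG sites, and satellite words covered 34.9% of it. Within the genes the cover was higher, at 93.8% of Gm10800 and 37.7% of Gm10801, and at 79.2% of the exon bases of Gm10801. At the Gm10800 locus the words lay within a stretch of 784 bases, 739 of them covered, while at the Gm10801 locus 696 covered bases were spread over 1841. The Gm10720 locus was satellite almost from end to end.

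**Figure D1:**
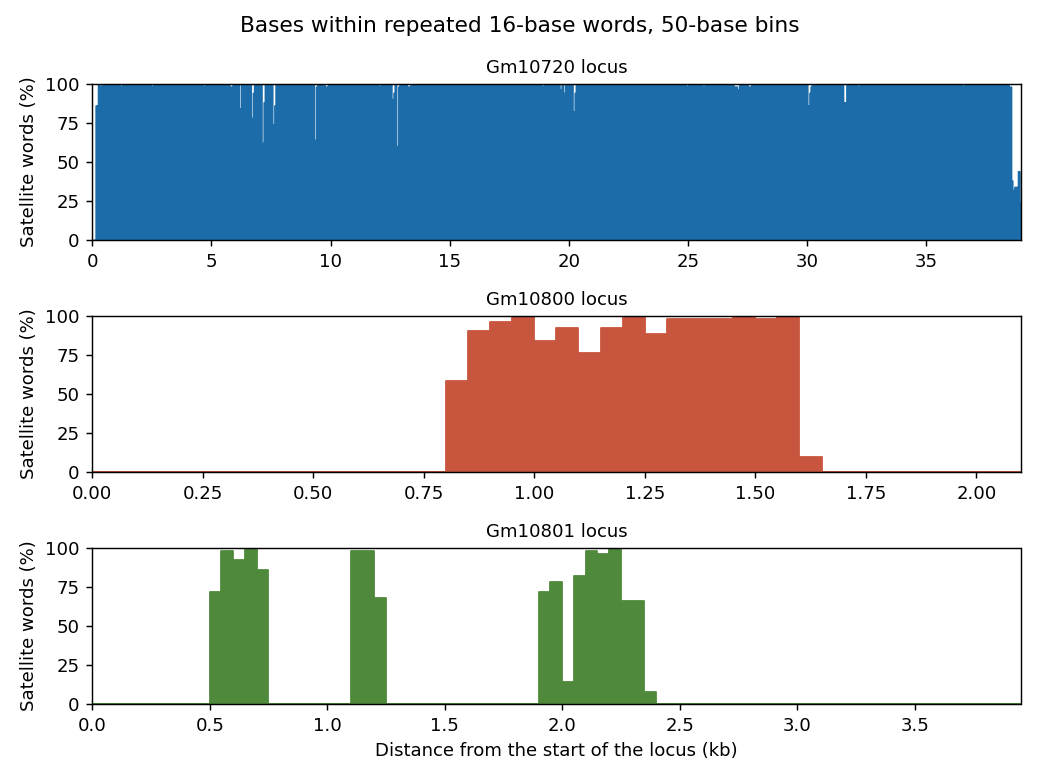
Percent of bases covered by satellite words (y axis) in 50-base bins along the 3 loci (x axis, kb from the start of each locus, each panel with its own length). The Gm10720 locus was covered along nearly its whole length, the Gm10800 locus in 1 central block and the Gm10801 locus in separate blocks in its first part.

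A window of each locus with the length of the Gm10720 period is shown, so that the satellite sequence behind the counts can be read. Each is 234 bases of the GRCm38 reference, 5′ to 3′, with its CpG sites, the bases that MBD capture reads when methylated, in capitals. Only windows that began with the most frequent satellite word were considered, 5 inside Gm10800, 7 inside Gm10720 and 4 inside Gm10801. Of the 5 inside Gm10800, the one with the most bases in satellite words was taken (chr2:98667051-98667284, minus strand). The others were those most like it among the windows inside Gm10720 (chr9:3016548-3016781, plus strand) and Gm10801 (chr2:98663831-98664064, plus strand).
Gm10800: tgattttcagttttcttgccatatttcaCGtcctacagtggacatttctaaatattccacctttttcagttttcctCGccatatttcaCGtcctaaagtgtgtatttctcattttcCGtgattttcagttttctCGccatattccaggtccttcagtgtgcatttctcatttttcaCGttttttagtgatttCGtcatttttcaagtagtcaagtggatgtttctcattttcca
Gm10720: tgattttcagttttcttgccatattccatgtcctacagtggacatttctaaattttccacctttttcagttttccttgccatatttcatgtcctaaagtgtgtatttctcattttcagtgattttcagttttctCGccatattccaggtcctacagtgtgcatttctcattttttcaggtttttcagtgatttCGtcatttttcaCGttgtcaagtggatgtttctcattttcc
Gm10801: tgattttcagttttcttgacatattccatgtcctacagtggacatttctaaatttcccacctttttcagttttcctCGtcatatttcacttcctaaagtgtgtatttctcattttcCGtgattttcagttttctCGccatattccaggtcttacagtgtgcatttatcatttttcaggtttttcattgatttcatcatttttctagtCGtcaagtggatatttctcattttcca
The windows were aligned with gaps allowed, and equal bases were taken as a percentage of the 234. On this measure the Gm10800 window was 94.9% identical to the Gm10720 window and 92.7% identical to the Gm10801 window. The Gm10720 and Gm10801 windows were 93.2% identical. All windows begin with the same word because of how they were taken, which raises these values. Since the windows were also searched for likeness, these are the highest values of a search. They do not measure how alike the loci are as a whole. The windows held 7 CpG sites at Gm10800, 4 at Gm10801 and 3 at Gm10720.

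The Gm10720 locus had a mean of 2.17 Mcounts per library (Mcounts, megacounts), the highest of all 187695 loci and 82079 times the median locus, whose mean count was 26.4. The Gm10800 locus came second with 312 kcounts (kilocounts), and the Gm10801 locus was the 4th with 97.6 kcounts. Together with the 11 ordinary loci they held 24.3% ± 2.77 (SD, n = 48 libraries) of all counts in loci, between 16.96 and 31.4% of a library. Per length the order was different, with 147 counts per base at the Gm10800 locus, 55.6 at the Gm10720 locus and 24.5 at the Gm10801 locus. Divided by the bases within satellite words, the means were 422 counts per base for Gm10800, 140 for Gm10801 and 57.4 for Gm10720. The words were defined from the Gm10720 locus, and the whole count of each locus was divided. The last order therefore depends in part on that definition.

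The 11 other loci of the windows had mean counts of 33.5 to 233, with a median of 66.0, and held 0.00875% of a library in sum. Satellite words were found in 1 of them, chr9:3055535-3056559, the one nearest to the Gm10720 locus, where they covered 9.85%. Per kb they had 31.97 to 96.4 counts, beside a median of 29.5 over all loci. Of them, 5 overlapped the gene 4930433N12Rik. The first loci outside the windows were of the same kind, with mean counts of 36.8 at chr9:3215271-3216579, 161 at chr2:98631773-98633442 and 57.5 at chr2:98751134-98752828.

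Counts of this height were also found elsewhere. Among loci outside the windows the highest mean count was 275 kcounts at chr14:19415218-19419856, over the predicted gene Gm21738, where satellite words covered 69.9%. It was followed by 67.5 kcounts at chr9:35304682-35306118 (Gm33838, 22.8% satellite words) and 27.7 kcounts at chr12:3109342-3111511, with no gene and 11.5% satellite words. The next was chr17:39842520-39849260, with 23.4 kcounts and no satellite word, which overlapped the predicted genes Gm26917 and Gm42418. The fifth, chr6:103647852-103649806 in Chl1, a neural cell adhesion gene, had 17.7 kcounts and no satellite word. Of all loci, 227 held any satellite word (0.121%) and 7 were covered to 20% or more, of which 2 were the Gm10720 and Gm10800 loci. Of the 5 others, 3 had mean counts of 364 to 783, above the median locus but far below the 3 named loci, so satellite words in a locus did not always go with an extreme count. The 5 loci that shared the most 31-base words with the 14 loci, 74.9 to 84.3% of their own words, held no satellite word and had mean counts of 19.8 to 31.9.

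The share of a library held by the Gm10720 locus lay between 13.99 and 26.6%. In Tph2+/+ mice the lowest, median and highest shares were 17.4, 19.7 and 21.3% for C and 19.9, 21.3 and 25.4% for MS. They were 19.4, 21.03 and 24.97% for C and 13.99, 19.2 and 23.2% for MS in Tph2+/- mice. The corresponding values in Tph2-/- mice were 17.5, 19.98 and 21.5% for C and 14.96, 20.8 and 26.6% for MS. The range of every group overlapped that of every other group. The lowest share belonged to Tph2+/- MS replicate 1 and the highest to Tph2-/- MS replicate 3, one of 2 libraries left out of the fits below for their low totals. Counting error was small beside this spread, since the widest Wilson 95% interval of any of these shares was 0.0609 percentage points wide. Such intervals cover counting error alone and take each count as independent. The Gm10720 count was even in 43 of 48 libraries. If reads were counted in pairs, the intervals would be too narrow, which was not tested.

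In order of the mean (± SD, n = 8 libraries), the Gm10720 share was highest in Tph2+/+ MS with 21.9% ± 1.91, before Tph2+/- C with 21.4% ± 1.86, Tph2-/- MS with 21.1% ± 3.40, Tph2-/- C with 19.7% ± 1.503, Tph2+/+ C with 19.4% ± 1.34 and Tph2+/- MS with 19.1% ± 2.66. Neighbours in this order differed by less than their SDs. The Gm10800 share ran from 3.19% ± 0.459 (Tph2+/- C) and 3.09% ± 0.236 (Tph2+/+ MS) down to 2.78% ± 0.157 (Tph2+/+ C) and 2.77% ± 0.357 (Tph2+/- MS), with both Tph2-/- groups between them. For Gm10801 the share ran from 1.01% ± 0.105 (Tph2+/- C) and 0.942% ± 0.0716 (Tph2+/+ MS) down to 0.885% ± 0.119 (Tph2-/- MS) and 0.840% ± 0.110 (Tph2+/- MS). Thus MS had the higher mean in Tph2+/+ mice and the lower mean in Tph2+/- mice at each of the 3 loci, while groups overlapped throughout.

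**Figure D2:**
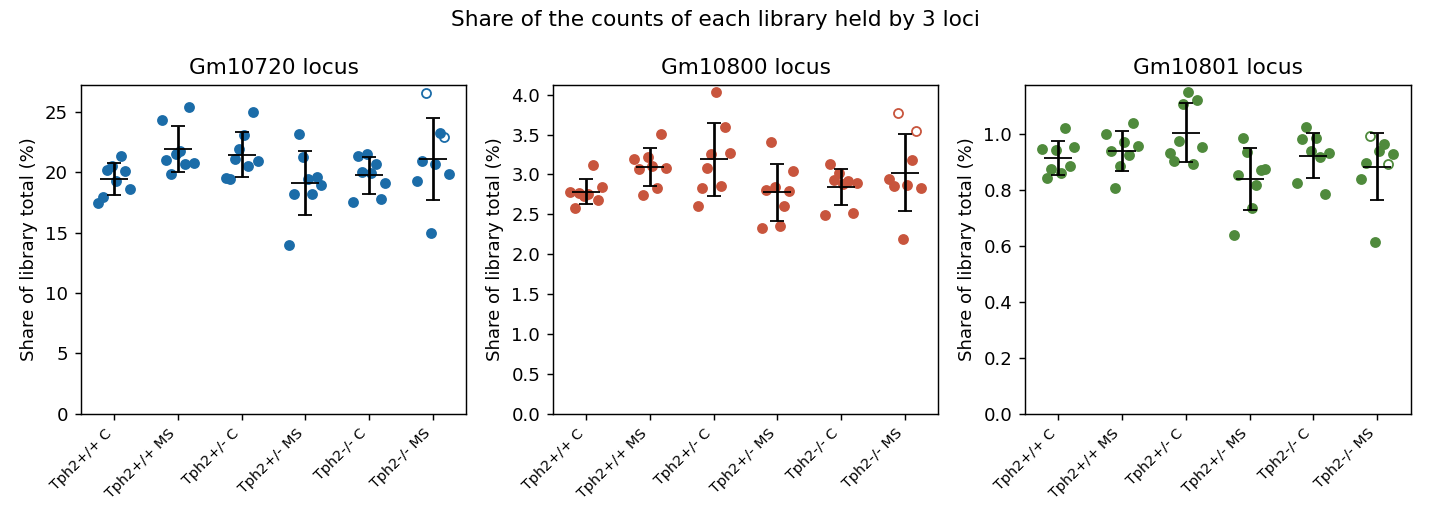
Share of the counts of each library (y axis, %) at the 3 loci in the 6 groups (x axis). Each point is 1 of 8 libraries per group, bars are the mean ± SD, and open points are the 2 Tph2-/- MS libraries left out of the fits; at the Gm10720 locus all libraries lay between 13.99 and 26.6%.

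The raw counts behind these shares differed little between groups at the Gm10800 and Gm10720 loci. The Gm10800 locus had 314 kcounts ± 13.6 (SD, n = 8) for C against 313 ± 9.28 for MS among Tph2+/+ mice, 311 ± 15.6 against 308 ± 19.8 among Tph2+/- mice, and 314 ± 13.6 against 311 ± 9.98 among Tph2-/- mice. At the Gm10720 locus the 6 group means lay between 2.11 and 2.22 Mcounts. The Gm10801 locus had lower mean raw counts in MS in each genotype, with 103.6 kcounts ± 6.72 for C against 95.4 ± 6.58 for MS among Tph2+/+ mice, 98.8 ± 11.7 against 93.7 ± 10.6 among Tph2+/- mice, and 102.3 ± 8.47 against 91.8 ± 11.4 among Tph2-/- mice. The difference was larger than both SDs in Tph2+/+ mice alone, was not tested, and left overlapping ranges in each genotype. Without replicates 3 and 7 the Tph2-/- MS mean was 96.7 kcounts ± 7.75 (n = 6). The rest of the library differed more in size: the counts outside the windows were 8.70 Mcounts ± 0.699 for C against 7.54 ± 0.837 for MS among Tph2+/+ mice, but 7.41 ± 1.43 against 8.72 ± 1.29 among Tph2+/- mice. Over all 48 libraries, the order of the groups by mean Gm10800 share was the reverse of their order by mean counts outside the windows. These counts are part of the denominator of that share. Without Tph2-/- MS replicates 3 and 7, that group had a share of 2.81% and 8.706 Mcounts outside the windows. Both values were then above those of Tph2+/+ C (2.78% and 8.701 Mcounts), so the reversal was no longer complete.

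Over the 48 libraries the raw count varied by 4.33% (coefficient of variation) at the Gm10800 locus, 9.35% at Gm10720 and 10.2% at Gm10801, while the counts outside the windows varied by 15.99%. If a locus kept a fixed share of its library, the log2 of its count would rise by 1 for each rise of 1 in the log2 of the counts outside the windows. This slope was 0.0843 ± 0.0376 (SE) for Gm10800, 0.215 ± 0.0798 for Gm10720 and 0.286 ± 0.0847 for Gm10801. By contrast, the sum of the 11 ordinary loci had a slope of 0.996 ± 0.0858. Over the 3197 loci outside the windows with a mean count of 200 or more the median slope was 0.805, and from the lowest to the highest 5% it ran from 0.633 to 1.19. Among these loci 0 had a lower slope than Gm10800, 3 a lower slope than Gm10720 and 8 a lower slope than Gm10801. Low slopes were shared by the loci of highest count elsewhere, with 0.249 at chr14:19415218-19419856, 0.216 at chr9:35304682-35306118, 0.121 at chr12:3109342-3111511 and 0.185 at chr6:103647852-103649806, but not by chr17:39842520-39849260, where the slope was 1.29. The 3 satellite loci with mean counts of 364 to 783 had slopes of 0.660 to 1.01.

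The relation between raw count and the rest of the library was looked at after the data had been seen, in a family of 9 relations, each with Pearson's r and Spearman's rho and p-values from 100000 permutations. For Gm10720, r was 0.37 (permutation p = 0.0103, adjusted p = 0.0155) and rho 0.37 (p = 0.0112, adjusted p = 0.0155). For Gm10800, r was 0.31 (permutation p = 0.0305, adjusted p = 0.0366) and rho 0.37 (p = 0.00962, adjusted p = 0.0155). For Gm10801, r was 0.45 (permutation p = 0.00162, adjusted p = 0.00419) and rho 0.44 (p = 0.00163, adjusted p = 0.00419). Without the 2 libraries farthest from the median of the counts outside the windows, r was 0.32, 0.33 and 0.37 in the same order. For the 11 ordinary loci in sum r was 0.86 (permutation p = 1e-05, the smallest these permutations can give, adjusted p = 9e-05). Within the runs of sample numbers the relation did not hold throughout. In S18 to S26, with 9 MS libraries, r was -0.35 for Gm10720, -0.18 for Gm10800 and -0.07 for Gm10801, while in the other runs it lay between 0.30 and 0.75. The slope in the 4 runs stayed between -0.19 and 0.48 for the 3 loci, below the slope of the ordinary loci in each run (0.85 to 1.15).

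**Figure D3:**
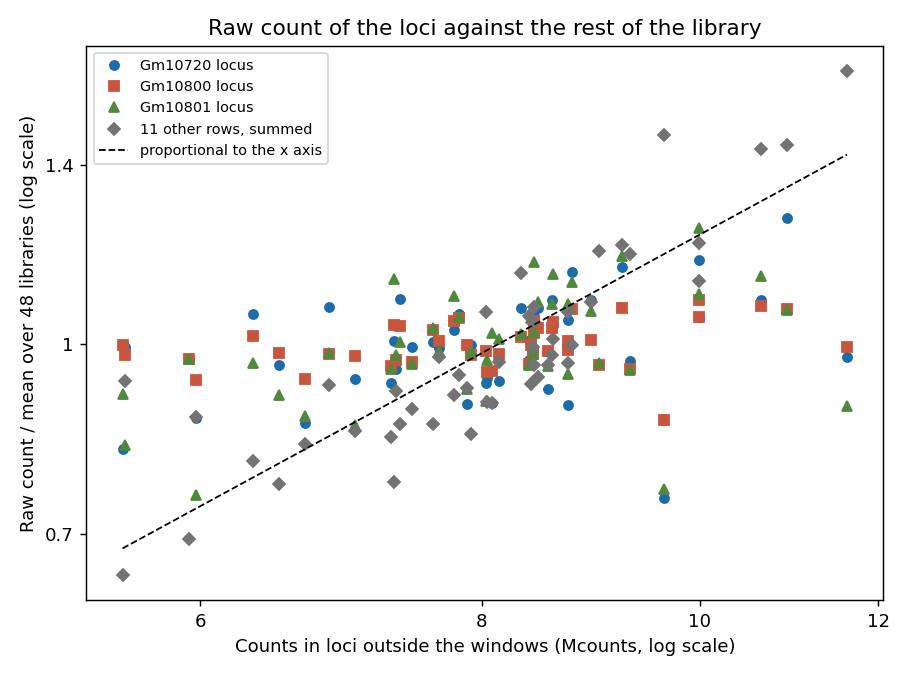
Raw count of the 3 loci and of the sum of the 11 other loci, each divided by its mean over 48 libraries (y axis, log scale), against the counts in loci outside the windows (x axis, Mcounts, log scale), 1 point per library. The sum of the other loci followed the dashed line of proportion (slope 0.996), while the 3 loci stayed closer to level (slopes 0.0843 to 0.286).

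**Figure D4:**
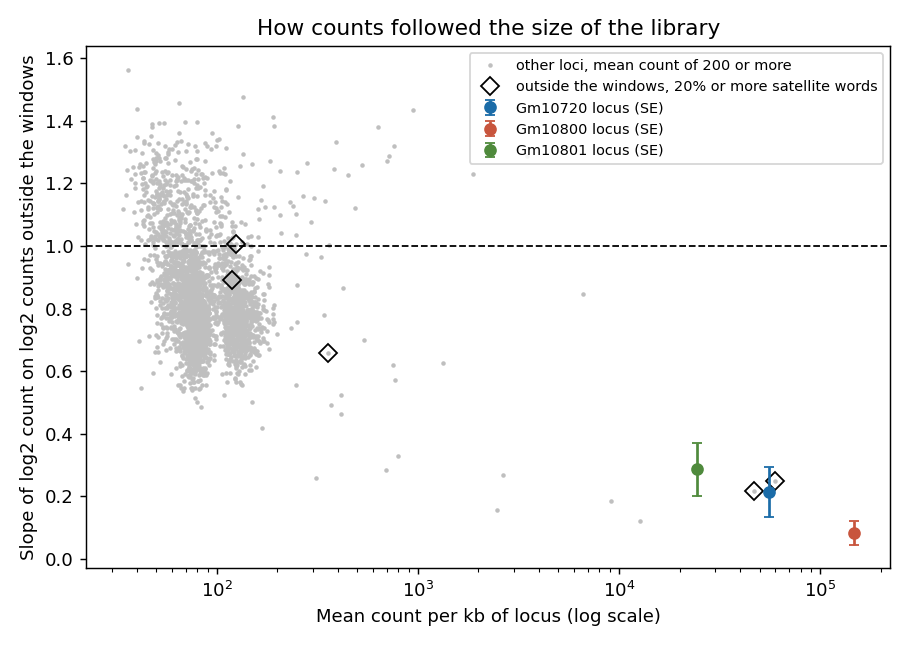
Slope of log2 count on log2 counts outside the windows over 48 libraries (y axis) against mean count per kb (x axis, log scale). Grey points are the 3197 loci of mean count 200 or more, diamonds the 5 loci outside the windows with 20% or more satellite words, coloured points the 3 loci with their SE; the dashed line marks a slope of 1, and the loci of highest count per kb sat at the lowest slopes.

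The 3 loci rose and fell together from library to library. On the scale of log2 CPM (counts scaled to a common library size) after TMM normalisation (TMM scales each library by the bulk of its loci), r over 48 libraries was 0.95 between Gm10720 and Gm10800, 0.93 between Gm10720 and Gm10801 and 0.93 between Gm10800 and Gm10801. These values are a description, since all 3 share the library total as denominator: on raw counts, which have no denominator, r was 0.82, 0.71 and 0.81. Within the 4 runs r stayed between 0.85 and 0.99 on the normalised scale. The 11 ordinary loci did not follow them, with r between -0.43 and 0.57 against Gm10720 and a median of 0.10. Normalised counts went down as the library total went up, with r = -0.70 for Gm10720, -0.85 for Gm10800 and -0.75 for Gm10801. The library total is part of their denominator, so these values restate the low slopes of the raw counts and are not a separate observation.

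Outside the windows, the locus most like Gm10720 after removal of the group means was chr14:19415218-19419856 (r = 0.99 over 46 libraries, among 187583 loci). The one most like Gm10800 was chr12:3109342-3111511 (r = 0.98), and the one most like Gm10801 was chrX:143482486-143483641 (r = 0.95), which had a mean of 3059 counts and no satellite word. The same 5 loci, these 3 with chr9:35304682-35306118 and chr6:103647852-103649806, made up the top 5 for each of the 3, with r of 0.82 or more.

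The pairs of loci did not keep a fixed ratio. Per 100 counts at Gm10800, the Gm10801 locus had 32.98 ± 1.12 (SD, n = 8) for C against 30.5 ± 1.59 for MS among Tph2+/+ mice, 31.8 ± 2.37 against 30.3 ± 1.76 among Tph2+/- mice, and 32.5 ± 1.48 against 29.5 ± 2.89 among Tph2-/- mice. Without replicates 3 and 7, the 2 libraries left out of the fits, the Tph2-/- MS mean was 30.7 ± 2.11 (n = 6). The mean was lower in MS in each genotype either way, with overlapping ranges. By run it was 32.7 in S1 to S17, 31.7 in S42 to S48, 29.3 in S18 to S26 and 30.6 in S27 to S41. Per 100 counts at Gm10720, the Gm10800 locus had 14.1 to 14.8 in the 6 groups.

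The contrasts of the design were fitted across all 187695 loci with edgeR's quasi-likelihood test on 46 libraries, and a locus was called where its unadjusted p was under 0.01 and its log2 fold change beyond 0.2. GE1 compares the MS difference of Tph2+/- mice with that of Tph2+/+ mice (the former minus the latter), and GE2 does so for Tph2-/- mice. In GE1, 3 of the 14 loci were called, beside 0.626% of all loci, and they were the 3 of extreme count. The log2 fold change was -0.54 ± 0.13 (SE) for Gm10800, -0.52 ± 0.14 for Gm10720 and -0.48 ± 0.13 for Gm10801 in the edgeR fit. None passed Benjamini-Hochberg adjustment over all loci (edgeR adjusted p = 0.999993 for each), nor did any other locus: edgeR gave 0 calls of 187695 after adjustment and 6968 at an unadjusted p under 0.05. Gm10801 is on the list of loci that the study itself picked by this contrast from these libraries, so its call is not independent evidence. The calls of Gm10720 and Gm10800 come from the same libraries, contrast and limits, so they are not independent evidence either. Since the 3 loci moved together over libraries, their calls are not 3 separate observations.

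In Tph2+/+ mice MS went with higher normalised counts, with a log2 fold change of 0.31 ± 0.10 for Gm10720, 0.29 ± 0.09 for Gm10800 and 0.17 ± 0.09 for Gm10801 in the edgeR fit. Here 2 of 14 loci were called, Gm10720 and Gm10800, beside 1.31% of all loci. In Tph2+/- mice the direction was the opposite, at -0.31 ± 0.09 for Gm10801, -0.25 ± 0.09 for Gm10800 and -0.22 ± 0.10 for Gm10720, and 2 of 14 were called, Gm10801 and Gm10800, beside 0.779% of all loci. In Tph2-/- mice the values were 0.09 ± 0.11 for Gm10720, 0.07 ± 0.10 for Gm10800 and -0.01 ± 0.10 for Gm10801, with 0 of 14 called beside 1.48% of all loci. The last values depended on the libraries used: with all 48 libraries they were 0.34, 0.33 and 0.17, and without Tph2-/- MS replicate 4 they were 0.18, 0.14 and 0.08, with none of the 3 loci called either way. The edgeR adjusted p of the 3 loci was 0.752 or more in all 3 genotypes. These directions were also compared by 2-sided exact permutation tests of log2 CPM, 9 in all and not adjusted. In Tph2+/+ mice (8 against 8 libraries) the exact p was 0.00264 for Gm10720, 0.00264 for Gm10800 and 0.0615 for Gm10801. In Tph2+/- mice it was 0.0601, 0.0632 and 0.0113 in the same order, so of the 2 loci called there Gm10800 did not pass 0.05 in the exact test. It was called under 4 of 15 alternative settings. In Tph2-/- mice (6 against 8) it was 0.595 or more.

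The library totals moved with these results. With the log2 library total as a covariate, chosen after the data had been seen, 0 of the 14 loci were called in GE1, in MS in Tph2+/+ or in MS in Tph2+/-, beside 0.726, 1.67 and 0.617% of all loci. In that edgeR fit the GE1 log2 fold change was -0.25 ± 0.12 for Gm10720, -0.18 ± 0.12 for Gm10801 and -0.16 ± 0.10 for Gm10800. With all 48 libraries the GE1 values stayed at -0.52, -0.54 and -0.48 for Gm10720, Gm10800 and Gm10801, but none of the 3 met the limit on p any longer. Without Tph2+/- MS replicate 1, the library of the lowest Gm10720 share, 3 loci were still called in GE1, with log2 fold changes of -0.43 to -0.51, while in MS in Tph2+/- the count went from 2 to 1.

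**Figure D5:**
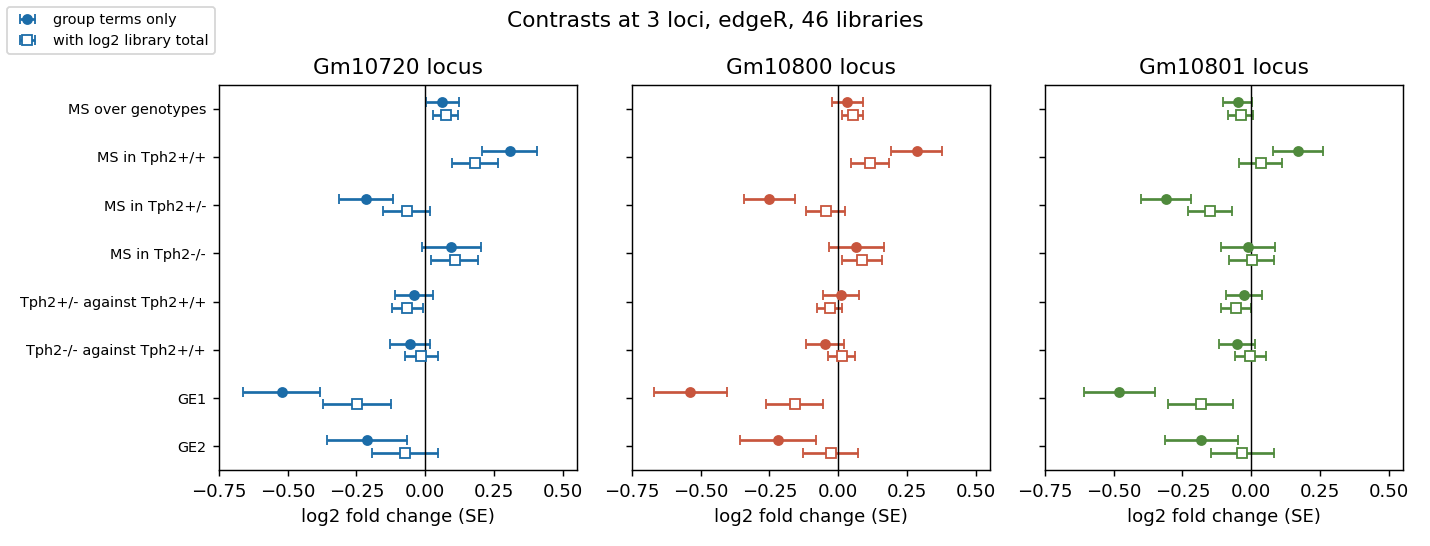
Log2 fold change (x axis, bars are the SE) of the 3 loci in 8 contrasts (y axis), from edgeR fits of 46 libraries with group terms (filled circles) and with the log2 library total added (open squares). With the library total added, GE1 went from between -0.54 and -0.48 to between -0.25 and -0.16.

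The same direction was seen at other loci of high count, with and without satellite words. For GE1 the edgeR log2 fold change was -0.50 ± 0.13 at chr14:19415218-19419856, -0.53 ± 0.13 at chr9:35304682-35306118 and -0.54 ± 0.13 at chr12:3109342-3111511, all 3 called. Without satellite words, chr6:103647852-103649806 at -0.49 ± 0.14 and chrX:143482486-143483641 at -0.48 ± 0.14 were called too, while chr17:39842520-39849260 was not, at -0.52 ± 0.50. At the 3 satellite loci with mean counts of 364 to 783 it lay between -0.04 and 0.00. Genotype by itself went with small values, between -0.06 and 0.01 for the 3 loci in Tph2+/- and Tph2-/- against Tph2+/+, with 0 of 14 loci called beside 0.546 and 0.748% of all loci. For GE2 the values were -0.22 ± 0.14 for Gm10800, -0.21 ± 0.15 for Gm10720 and -0.18 ± 0.13 for Gm10801, with 0 of 14 called beside 0.558% of all loci. All 3 GE2 values were above 0 with all 48 libraries, and without Tph2-/- MS replicate 4 they were -0.15, -0.13 and -0.09 in the same order.

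Over the genotypes together, MS went with log2 fold changes of 0.06 ± 0.06 for Gm10720, 0.03 ± 0.05 for Gm10800 and -0.05 ± 0.05 for Gm10801. In this contrast 1 of 14 loci was called, beside 3.63% of all loci. It was chr9:3145386-3146489, one of the ordinary loci in 4930433N12Rik, at 0.38 ± 0.13 (edgeR adjusted p = 0.216). With terms for the runs, without S18 to S26 or with the CpG slope as a covariate this locus was not called, and chr9:3115965-3117201 was called in its place, lower in MS at -0.30 to -0.26. The other 10 ordinary loci were not called in any of the 8 contrasts in the fit by groups. One of them, chr9:3199008-3200548, had a GE1 log2 fold change of 0.64 ± 0.24, opposite to the 3 loci of extreme count, and was called under 8 of 15 alternatives, at 0.62 to 0.81. The chr9:3145386-3146489 locus was higher in the MS libraries S18 to S26 than in S27 to S41, by 0.69 ± 0.15 on the log2 scale (edgeR adjusted p = 0.000607).

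Between these runs of MS libraries, 4 of 14 loci were called, all of them ordinary loci, beside 12.9% of all loci, and the same number passed an adjusted p under 0.05, beside 10.4%. The smallest p was that of chr9:3174271-3176687, also in 4930433N12Rik, at 0.68 ± 0.12 (edgeR adjusted p = 2.5e-05). For the 3 loci of extreme count the run difference lay between -0.09 and -0.04, with edgeR adjusted p of 0.55 or more. Between the late and early C libraries 0 of 14 were called, beside 2.26% of all loci, and the 3 loci differed by -0.03 to 0.01.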

How the data were processed

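The authors captured methylated DNA with a methyl-CpG-binding domain (MBD), sequenced pairs of short reads, mapped them with Bowtie2 2.1.0 to GRCm38, called and merged peaks over libraries, and counted reads per peak with DiffBind 2.0.9. The deposited table holds these raw counts for 187695 loci, and all 48 columns matched a label. The treatment of duplicate and multiply mapping reads is not given in the sources used here. Library totals over loci were 7.72 to 14.1 Mcounts. They are not the sequencing depth, which sets the precision and is not given here per library.

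Contrasts were fitted on all loci with edgeR 4.0.16 in R 4.3.3 (TMM, trended dispersion, robust quasi-likelihood F-test, 1 term per group, Benjamini-Hochberg adjustment). The limits for a call were those of the study. Replicates 3 and 7 of Tph2-/- MS, the lowest totals of that group, stayed out of the fits, because the study left out 2 of its libraries without naming them. Exact permutation tests and the slopes on library size were added after the data were seen. Genes and repeats were read from GENCODE M21 and the GRCm38.p6 reference. RefSeq promoter tables held none of these genes.

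Named were every locus of the rule, the first locus outside each window edge, the 5 outside with the highest mean count, the 5 most alike over libraries to each of the 3 loci (mean count of 10 or more), and the 5 sharing most 31-base words. The 5 outside loci rich in satellite words were named after their values were seen. Members and lists were chosen with earlier results of these data known. Of the 13 genes in the satellite-like list, 12 were in the annotation. The fitting step was tested on simulated counts that used the means, library sizes and trended dispersion of these data. In each of 2 contrasts, 100 loci were changed by 1 on the log2 scale. For GE1, 22 of them passed an adjusted p under 0.05 and 81 met the limits for a call. For Tph2-/- against Tph2+/+, 100 passed both. The other steps were not tested in this way.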

Additional observations from a re-analysis of the deposited data

Results flagged for a closer look

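At the Gm10801 locus, Tph2-/- MS replicate 4 held 0.615% of its library, far below the other 7 libraries of its group. It was the 1 library that stood apart in 36 groups of values examined (raw count and share at 3 loci in 6 groups). The 3 loci moved together over libraries, so these groups are not independent. Whether 1 flag in 36 is more than chance gives was not tested. This library had the largest total of all, 14.1 Mcounts, and also the lowest Gm10800 share of the 48 libraries (2.19%) and the second lowest Gm10720 share (14.96%).

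The MS difference differed between Tph2+/- and Tph2+/+ mice at all 3 loci at the limits of the study, with GE1 log2 fold changes of -0.48 for Gm10801, -0.54 for Gm10800 and -0.52 for Gm10720. None passed adjustment over all loci in the edgeR fit, and none met the limits with the log2 library total as a covariate. The part of the library total in this difference was not tested beyond that fit.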

How the results depend on the processing

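The values are limited by reads that cannot be assigned to one copy of a repeat, by totals that are not sequencing depths and by the confounding of MS with run. Of 119 counts of called loci under 15 alternatives, 99 stayed within 1.5 times the main count. These include counts that stayed at 0 in MS in Tph2-/-, GE2 and both genotype contrasts, where the main fit called 0. An equal count also need not stand for the same loci. For 312 of 357 log2 fold changes the direction and the side of the limit stayed the same. 

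With all 48 libraries, 2 loci were called in MS over genotypes (1 in the main fit), 0 in MS in Tph2+/+ (2), 0 in MS in Tph2+/- (2), 2 in MS in Tph2-/- (0), 0 in GE1 (3) and 1 in GE2 (0). Signs turned there in Tph2-/- against Tph2+/+ (0.0690 for Gm10720, 0.0859 for Gm10800, 0.0388 for Gm10801), in GE2 (0.0394, 0.0501 and 0.000107) and for Gm10801 in MS over genotypes (0.00806) and MS in Tph2-/- (0.167). With the log2 library total as covariate, added after the data were seen, 0 were called in MS in Tph2+/+, 0 in MS in Tph2+/- and 0 in GE1, and signs turned for Gm10800 in Tph2+/- (-0.0318) and Tph2-/- (0.0126) against Tph2+/+ and for Gm10801 in MS in Tph2-/- (0.000973). Without S18 to S26, 1 was called in MS in each of Tph2+/+, Tph2+/- and Tph2-/-, and signs turned for Gm10720 (0.0173) and Gm10801 (0.0132) in Tph2+/- against Tph2+/+ and for Gm10801 in MS in Tph2-/- (0.0392). Library sizes without TMM gave 0 in MS in Tph2+/+ and 1 in GE2, and turned Gm10800 in MS over genotypes (-0.0223) and MS in Tph2-/- (-0.0187). The CpG slope as covariate gave 1 in MS in Tph2+/+ and 1 in MS in Tph2+/-. In MS in Tph2+/-, DESeq2 gave 1 and terms for the runs of sample numbers gave 1, and the latter turned Gm10801 in MS in Tph2-/- (0.0232). Without Tph2+/- MS replicate 1 or Tph2-/- MS replicate 4, each left out after the data were seen, 1 to 2 were called in MS in Tph2+/-, and Gm10801 in MS in Tph2-/- ran from -0.0109 to 0.0812. The cause of these changes was not tested.

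The replicate number as a block gave 1 called locus in MS in Tph2+/- in place of 2, and 4 in place of 3 in GE1. Libraries of the same number in different groups did not deviate together (mean r = 0.02 over 110 pairs, beside 0.00 over 770 pairs of different number), so the numbers do not pair the mice.

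Against the counts outside the windows the share of the 14 loci was 32.3%. Of all counts in loci, the chromosome 9 window alone held 20.5% and the chromosome 2 window alone 3.87%. On the log2 share scale, r was 0.86 between Gm10720 and Gm10800, 0.79 between Gm10720 and Gm10801 and 0.81 between Gm10800 and Gm10801. Within S18 to S26, r between Gm10720 and Gm10801 was 0.99 on the log2 TMM-normalised scale and 0.95 on the log2 share scale.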
